A study of Homo sapiens with 6 samples.

Results

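The genes followed here are 10 genes of the ATF4-CHOP branch of the stress response, chosen by name from the deposited expression table: the transcription factors ATF4, DDIT3 (which encodes CHOP), ATF3 and ATF5, the feedback regulators TRIB3 and PPP1R15A, and the stress effectors CHAC1, SESN2, DDIT4 and VLDLR. They are 10 of 29982 gene symbols in the table, each with 1 row, and all 10 were among the 13287 genes whose mean FPKM was 1 or more and which entered the comparisons (FPKM counts fragments relative to transcript length and to the mapped fragments of the library, so that levels of different genes can be set side by side per length). RNA was sequenced from OVCAR5, an established human ovarian cancer line, in 6 libraries: DMSO vehicle (replicates 1 and 2), 10 μM SpiD7 for 2 h (replicates 1 and 2), 10 μM SpiD7 for 6 h (1 library) and 10 μM SpiD7 for 12 h (1 library). SpiD7 is a spirocyclic dimer with Michael acceptor groups, which form covalent bonds with exposed cysteines of proteins. The labels give no duration for the vehicle and do not say whether the replicates were separate cultures, so that a p-value here measures the spread between these libraries, which may be technical.

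As background, the integrated stress response starts when a kinase such as PERK, a sensor of misfolded protein in the endoplasmic reticulum, phosphorylates the translation factor eIF2α. Most translation then slows while the ATF4 mRNA is translated more, and ATF4 with its partners turns on genes of amino acid supply, redox balance and stress control, DDIT3 among them. CHOP, the DDIT3 product, is linked to cell death under lasting stress, whereas PPP1R15A (GADD34) directs a phosphatase to eIF2α and TRIB3 binds ATF4 and CHOP, both acting as feedback. RNA levels show neither the phosphorylation nor the translation step.

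Replicate 2 of DMSO and of 2 h is not a deposited column. The columns bearing those names held the mean of both libraries of a group, judged from their values, and replicate 2 was recovered by subtracting replicate 1. It is called recovered below. Of the 10 genes, 8 had more RNA in the recovered DMSO library than in DMSO replicate 1 (45.0% of all 13287 genes did). Between these libraries, 5 of the 10 differed more than 2-fold (13.5% of all genes did). Every value at 6 h and 12 h is therefore given against each DMSO library as well as against their mean. The 6 h and 12 h libraries lay nearer to DMSO replicate 1 over all genes, at a root mean square log2 difference of 1.10 and 1.17, than to the recovered DMSO library, at 1.25 for both. The epithelial markers EPCAM, KRT8, KRT18, KRT19 and CDH1 had a summed FPKM of 2942 to 4229.8 in every library. KRT8 and KRT18 made up most of this sum, and CDH1 was at 10.4 to 19.3. Of the Müllerian markers, PAX8 was at 1.64 to 2.12, while WT1 and MUC16 stayed below 1 FPKM. Of 3 markers of other cells, PTPRC (leukocytes) was at or near 0, and the sum with PECAM1 (endothelium) and COL1A1 (fibroblasts) was 1.36 and 12.9 under DMSO, 1.73 and 9.74 at 2 h, 1.51 at 6 h and 2.66 after 12 h. PECAM1 made up most of the high sums in the recovered libraries. It therefore differed along the replicate number, as several of the 10 genes did, and its part in their differences was not tested. Because these are bulk samples, fewer responding cells and less RNA in each cannot be told apart.

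The bases just before the start of a gene are where ATF4, CHOP and their partners can bind. RefSeq windows of 250 bases before to 50 bases after each start (GRCh38.p14) were found for all 10 genes, 17 windows in all, and were searched on both strands for 4 short motifs. The C/EBP-ATF composite element TTGCATCA was found in CHAC1 among the 10 and in 1.08% of all 27305 genes. The looser form TTNCATCA, which includes the former, was in CHAC1 and ATF3 and in 4.46% of genes. The CRE, TGACGTCA, was in PPP1R15A and in 2.25% of genes. The AP-1 element TGANTCA was in DDIT3 and ATF5 and in 9.37% of genes. These matches are shown because they are the only ones found with these 4 motifs in those windows. Capitals mark the match, and all lines read 5′ to 3′ on the strand of the gene.

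CHAC1, chr15:40953251-40953280, plus strand: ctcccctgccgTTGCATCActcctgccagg
ATF3, chr1:212565205-212565234, plus strand, match on the opposite strand: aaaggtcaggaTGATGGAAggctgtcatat
PPP1R15A, chr19:48872352-48872381, plus strand: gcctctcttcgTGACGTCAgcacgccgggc
DDIT3, chr12:57520738-57520764, minus strand: gcgcgcgcaTGACTCAcccacctcctc
ATF5, chr19:49928707-49928735, plus strand: ggagagtgctgTGACTCAtgctggactct

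In the GENCODE 29 annotation the CHAC1 and ATF5 stretches also lie in exons of these genes, and on the other strand the ATF5 stretch lies in an exon of NUP62 and the DDIT3 stretch in an exon of MBD6. A match describes the letters in these windows, and binding was not measured. ATF4, TRIB3, SESN2, DDIT4 and VLDLR had none of these letters in their windows.

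ATF4 and DDIT3, the head of the axis, were higher in every SpiD7 library than in either DMSO library. ATF4 (chr22:39519695-39522685) was the most abundant of the 10 under DMSO, with FPKM of 153 in replicate 1 and 202 in the recovered replicate, and reached 269.5 and 274 at 2 h, 343 at 6 h and 326 after 12 h. The DMSO and SpiD7 libraries did not overlap, but the rise was small. On log2(FPKM + 0.1), the scale of all fold changes here, which understates changes of low genes, ATF4 was 0.63 above DMSO at 2 h (SE 0.22, n = 2 and 2, unadjusted p of 0.0518 and adjusted p of 1.0 from limma), 0.96 at 6 h and 0.89 after 12 h. Against the recovered DMSO library it was 0.76 at 6 h and 0.69 after 12 h. The annotation names 4 ATF4 pseudogenes, whose reads the authors' counting could share with ATF4.

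DDIT3 (chr12:57516588-57521737, minus strand) was at 13.9 and 46.3 FPKM under DMSO. It stood at 99.1 and 188 after 2 h, 203 after 6 h and 124 after 12 h. Its lowest SpiD7 library thus lay above its highest DMSO library, although the DMSO libraries differed by 1.72 on the log2 scale. The log2 fold change was 2.42 at 2 h (SE 0.76, 95% interval 0.19 to 4.65, unadjusted p of 0.0403 and adjusted p of 1.0 from limma). In the first pair alone it was 2.82 and in the recovered pair 2.02. At 6 h it was 3.85 against DMSO replicate 1 and 2.13 against the recovered DMSO library, and at 12 h 3.15 and 1.42. DDIT3 exons overlap those of AC022506.1 on the same strand and of MARS and MBD6 on the opposite strand, and the library kit did not mark strand. The deposited locus of the DDIT3 row spans 60384 bases, more than the annotated gene. MARS (45.1 and 34.8 FPKM under DMSO, 45.3 at 6 h) and MBD6 (5.33 and 6.87, then 6.07) had log2 fold changes of 0.19 and 0.01 at 6 h.

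ATF3 (chr1:212565334-212620777), a factor induced early by many stresses, gave the widest spread of the 10. Its FPKM was 1.06 in DMSO replicate 1 but 99.4 in the recovered DMSO library, above the 46.0 and 80.2 of the 2 h libraries, the 57.0 at 6 h and the 31.9 at 12 h. The DMSO libraries enclosed every SpiD7 value. The log2 fold change at 2 h was 5.31 in the first pair and -0.31 in the recovered pair, and at 6 h it was 5.62 against the first and -0.80 against the recovered DMSO library. Against the mean it was 2.50 at 2 h (SE 2.46, 95% interval -4.75 to 9.75, unadjusted p of 0.375 and adjusted p of 1.0 from limma). At 12 h it was 4.78 and -1.64 against the single DMSO libraries, so that at each time its sign depended on the DMSO library.

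ATF5 (chr19:49928702-49933935), a factor related to ATF4 and regulated alike at translation, did not separate from DMSO at any time. FPKM was 29.2 and 20.1 under DMSO, 30.0 and 17.1 at 2 h, 27.4 at 6 h and 22.3 after 12 h. Replicate 2 was the lower library in both groups. The log2 fold change was -0.10 at 2 h (95% interval -1.28 to 1.08), 0.18 at 6 h and -0.12 after 12 h. The table gives the microRNA gene MIR4751 the same values as ATF5 in every column, so that this row is 1 estimate for a locus that both share, and its exons overlap those of NUP62 and IL4I1 on the opposite strand. NUP62 and IL4I1 had the same values as each other, 66.1 and 44.5 FPKM under DMSO and 57.4 and 39.1 at 2 h. Replicate 2 was lower in both groups there too. The deposited locus of the ATF5 row spans 44284 bases, more than the annotated gene.

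**Figure D1:**
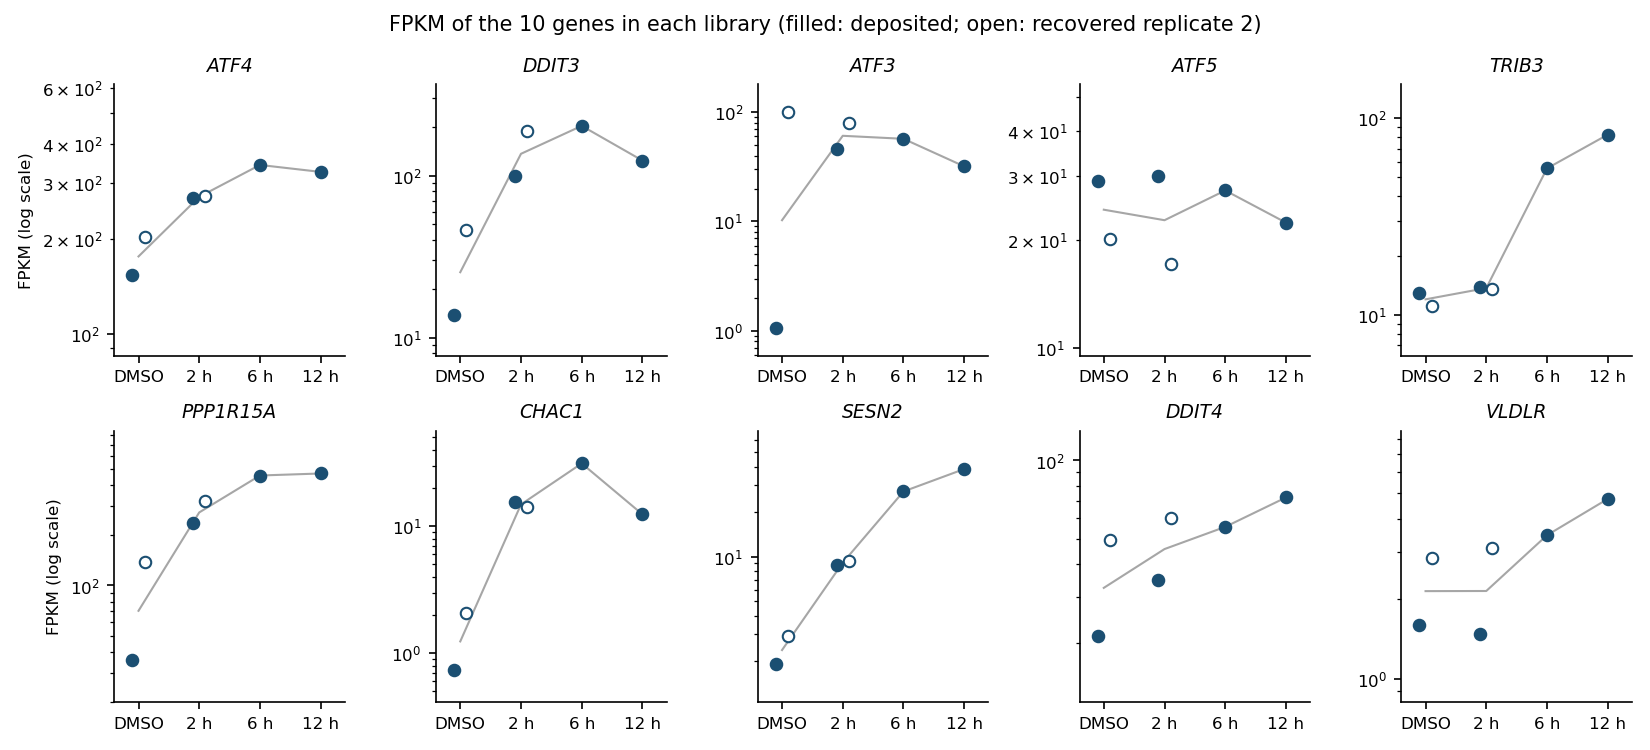
FPKM (log scale, set separately for each gene) of the 10 genes under DMSO and after 2, 6 and 12 h of 10 μM SpiD7, with filled points for deposited libraries, open points for recovered replicate 2 and a line through the geometric mean of each group. CHAC1 goes from 0.738 and 2.08 under DMSO to 31.2 at 6 h and 12.4 after 12 h, TRIB3 lies between 11.1 and 13.8 up to 2 h and at 55.5 at 6 h, and the ATF3 DMSO libraries lie at 1.06 and 99.4 on either side of all SpiD7 values.

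Of the feedback regulators, PPP1R15A stood 3.88-fold above DMSO at 2 h and TRIB3 1.13-fold, while at 12 h they stood at 6.66-fold and 6.82-fold. The difference between these courses was not tested. PPP1R15A (chr19:48872392-48876057) was at 35.7 and 139 FPKM under DMSO, 236 and 319.9 at 2 h, 458 at 6 h and 471 after 12 h, so that it was the most abundant of the 10, ahead of ATF4, in the recovered 2 h library, at 6 h and at 12 h. All SpiD7 libraries lay above both DMSO libraries. The DMSO libraries were 1.96 apart on the log2 scale, as far as the 2 h fold change of 1.96 (SE 0.78, unadjusted p of 0.0748 and adjusted p of 1.0 from limma). At 6 h the fold change was 3.68 against DMSO replicate 1 and 1.72 against the recovered DMSO library. At 12 h it was 3.72 and 1.76.

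TRIB3 (chr20:362835-397559) was at 12.9 and 11.1 FPKM under DMSO and at 13.8 and 13.5 at 2 h, with close replicates in both groups. It then stood at 55.5 at 6 h and 82.4 after 12 h. The 2 h libraries exceeded the DMSO libraries by a log2 fold change of 0.18 (SE 0.17, 95% interval -0.33 to 0.69, unadjusted p of 0.358 and adjusted p of 1.0 from limma). The values at 6 h and 12 h were 2.20 and 2.77 above the mean of DMSO. The DMSO libraries were 0.21 apart on the log2 scale, the smallest such difference among the 10, and against the recovered one the values were 2.31 and 2.88.

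Among the effectors, CHAC1 and SESN2 were higher in every SpiD7 library than in either DMSO library. CHAC1 (chr15:40952962-40956519), which degrades glutathione, was the least abundant under DMSO with 0.738 and 2.08 FPKM. At 2 h it was at 15.5 and 14.2, at 6 h at 31.2 and at 12 h at 12.4. The lowest SpiD7 library lay above the highest DMSO library, and the 2 h replicates were close to each other. The log2 fold change was 3.47 at 2 h (SE 0.55, 95% interval 1.86 to 5.08, unadjusted p of 0.00500 and adjusted p of 1.0 from limma), the highest of the 10. Its 6 h value, 4.54, was also the highest of the 10 and corresponds to 23.2-fold. Against the recovered DMSO library it was 3.85 at 6 h and 2.52 after 12 h.

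SESN2 (chr1:28259527-28282491), a leucine sensor that restrains mTORC1, was at 1.89 and 2.94 FPKM under DMSO, 8.77 and 9.40 at 2 h, 27.3 at 6 h and 38.6 after 12 h. The groups did not overlap and the levels were higher at each later time. Its log2 fold change at 2 h was 1.90 (SE 0.28, 95% interval 1.07 to 2.72, unadjusted p of 0.00404 and adjusted p of 1.0 from limma). At 12 h it was 3.97, the highest of the 10 at that time, with 4.28 and 3.67 against the first and the recovered DMSO library.

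DDIT4 (REDD1), another inhibitor of mTORC1, exceeded both DMSO libraries at 6 h, at 12 h and in the recovered 2 h library, but not in the first 2 h library. DDIT4 (chr10:72273920-72276036) was at 21.2 and 49.6 FPKM under DMSO, 34.8 and 60.0 at 2 h, 55.6 at 6 h and 72.1 after 12 h. The 2 h libraries overlapped the DMSO libraries, whereas the 6 h and 12 h libraries were above both. The fold change at 12 h was 1.15 against the mean of DMSO, and 1.76 and 0.54 against the single DMSO libraries. DDIT4 exons overlap those of DDIT4-AS1 on the opposite strand. VLDLR (chr9:2621834-2660053), a receptor for triglyceride-rich lipoproteins, was at 1.60 and 2.86 FPKM under DMSO, 1.47 and 3.12 at 2 h, 3.47 at 6 h and 4.75 after 12 h. On the log2 scale VLDLR was 0.00 from the mean of DMSO at 2 h (95% interval -1.53 to 1.53) and 1.11 above it at 12 h. Against the first and the recovered DMSO library the VLDLR value at 12 h was 1.51 and 0.71. VLDLR-AS1, whose exons overlap VLDLR on the opposite strand, was below 1 FPKM in every library, at 0.101 and 0.113 under DMSO and 0.639 at 12 h. The deposited locus of the VLDLR row spans 118835 bases, more than the annotated gene.

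Counts over the 10 stand beside the same counts over all 13287 genes, with no test of the 2, since the 10 were chosen with results of these data known. At 2 h, 5 of the 10 were more than 2-fold above the mean of DMSO (DDIT3, ATF3, PPP1R15A, CHAC1 and SESN2), where 2.32% of all genes were. In 6 of the 10 both 2 h libraries exceeded both DMSO libraries, against 13.7% of all genes. These were ATF4, DDIT3, PPP1R15A, CHAC1, SESN2 and TRIB3. The test of 2 against 2 libraries by limma, with Benjamini-Hochberg adjustment over all 13287 genes, called 0 of the 10 (all genes: 0.0226% called in either direction). At an unadjusted limma p under 0.05, 3 of the 10 were higher (DDIT3, CHAC1 and SESN2), as were 2.52% of all genes. An exact permutation test of 2 against 2 libraries cannot go below a two-sided p of 0.333. The median log2 fold change of the 10 at 2 h was 1.26 (all genes, -0.01), with 1.49 in the first pair and 0.36 in the recovered pair.

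At 6 h, 6 of the 10 were more than 2-fold above the mean of DMSO, against 5.66% of all genes, and 5 were more than 2-fold above each DMSO library, against 3.21%. At 12 h the counts were 8 of 10 (6.48% of all genes) and 5 of 10 (3.88%). The 5 genes past 2-fold against each DMSO library were DDIT3, TRIB3, PPP1R15A, CHAC1 and SESN2 at both times. At both times 8 of the 10 were above both DMSO libraries, the exceptions being ATF3 and ATF5, where 31.6% of all genes were at 6 h and 30.1% at 12 h. The median of the 10 was 2.31 at 6 h (all genes, 0.03) and 1.93 at 12 h (all genes, -0.05). It depended on the DMSO library, at 2.89 against replicate 1 and 1.24 against the recovered library at 6 h, and 2.91 and 1.07 at 12 h. With 1 library at 6 h and 1 at 12 h, neither time has a replicate check or a test. Without the first DMSO library, 3 of the 10 passed 2-fold at 2 h and 5 at 12 h, and without the recovered one 9 did at 6 h and 9 at 12 h. The share of all genes past 2-fold with a DMSO library left out was not counted, so these counts have no background.

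**Figure D2:**
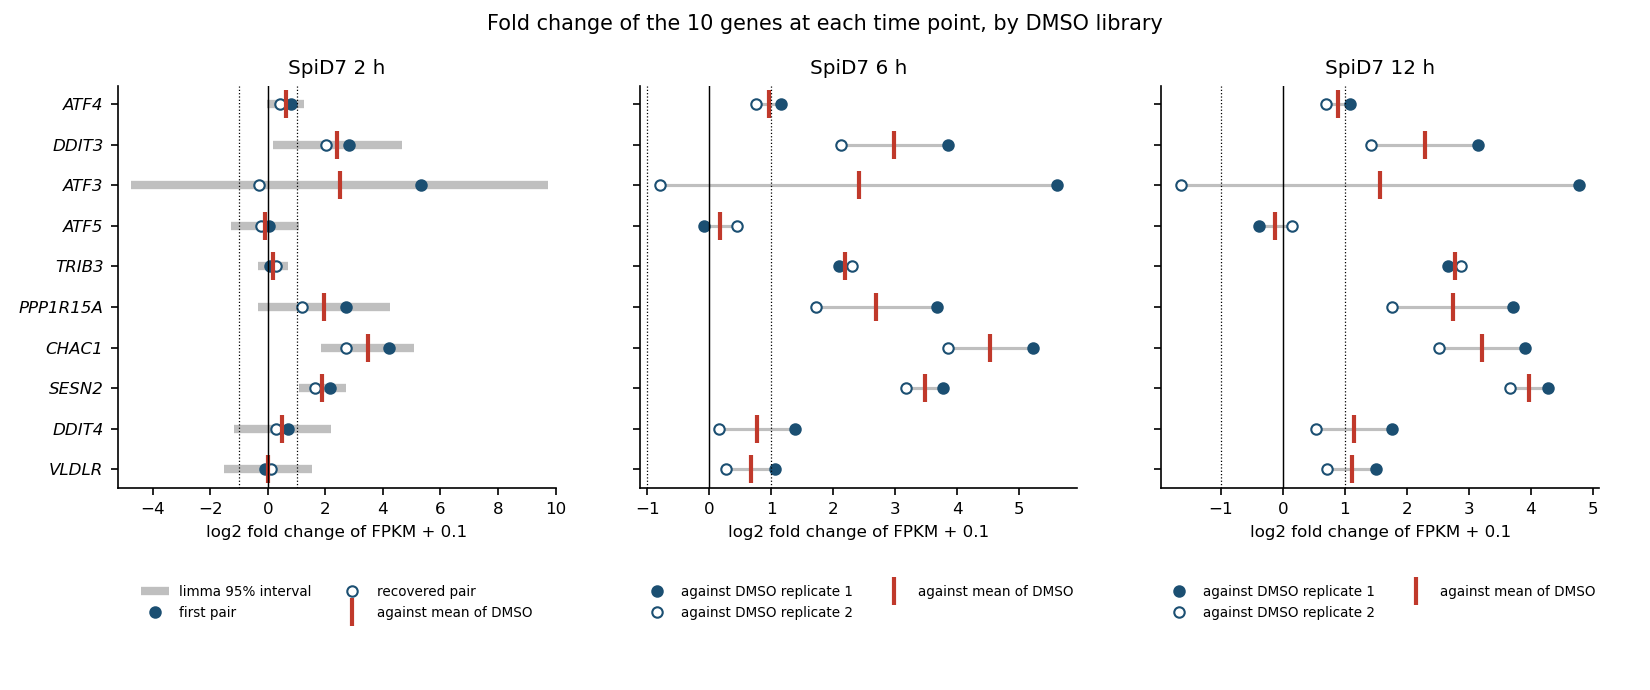
Log2 fold change of FPKM + 0.1 for the 10 genes at 2, 6 and 12 h, with filled and open circles for the value against the first and the recovered DMSO library (at 2 h, within the first and the recovered pair), red ticks for the value against the mean of DMSO, thick grey bars for the limma 95% interval at 2 h, thin grey lines joining the circles and dotted lines at 2-fold. TRIB3 at 12 h spans 2.66 to 2.88 while ATF3 at 6 h spans -0.80 to 5.62.

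The order of levels over time fell into several shapes. For each gene, neighbours in the order were compared with the larger of its replicate differences under DMSO and at 2 h. SESN2 and TRIB3 were highest at 12 h, then 6 h, 2 h and DMSO. For TRIB3 the step from 6 h to 12 h (0.57) and that from 2 h to 6 h (2.02) exceeded its replicate difference of 0.21. For SESN2 the step from 2 h to 6 h (1.58) exceeded its replicate difference of 0.61 and the further 0.50 to 12 h did not. PPP1R15A, DDIT4 and VLDLR had the same order, but no neighbouring levels differed by more than their replicate difference. DDIT3 and CHAC1 were highest at 6 h, with a mean level at 2 h that was 0.13 and 0.25 above the 12 h level. The drop from 6 h to 12 h was -1.32 for CHAC1 and -0.70 for DDIT3, each smaller than the replicate difference of the gene (1.38 and 1.72), and only the step up from DMSO exceeded it. ATF4 was also highest at 6 h, but its 6 h and 12 h levels were 0.07 apart, less than its replicate difference of 0.40, and after upper-quartile scaling 12 h was the higher by 0.01. ATF3 and ATF5 showed no neighbours apart by more than their replicate difference. From 6 h to 12 h, 5 of the 10 were higher (TRIB3, PPP1R15A, SESN2, DDIT4 and VLDLR) and 5 lower (ATF4, DDIT3, ATF3, ATF5 and CHAC1), and ATF4 was the 1 whose direction turned with the scaling.

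Upstream of ATF4 stand the eIF2α kinases, the PERK inhibitor DNAJC3, the eIF2 subunits and their exchange factor eIF2B. Of 13 such genes, 1 was more than 2-fold higher at 6 h (7.69%, against 5.66% of all genes) and 0 after 12 h (6.48% of all genes), and the median log2 fold change was -0.04, 0.20 and -0.10 at 2, 6 and 12 h. EIF2AK3 (PERK), the highest of this list at 6 h, was at 8.17 and 12.7 FPKM under DMSO, 13.3 and 19.1 at 2 h, 27.8 at 6 h and 18.9 after 12 h. It was the 1 gene past 2-fold, also against each DMSO library. EIF2AK1 (HRI, the heme-regulated kinase), the lowest, went from 65.8 and 70.5 under DMSO to 58.5 at 6 h, a log2 fold change of -0.22. DNAJC3, named after its values were seen, had the highest log2 fold change of the list at 12 h, with values of 0.02, 0.32 and 0.90 over time and 22.6 FPKM at 12 h against at most 13.1 under DMSO.

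Other known ATF4 targets, 22 genes mostly of amino acid synthesis and transport, had lower medians than the 10. FGF21 was left out for a mean FPKM below 1. At 2 h, 1 of the 22 was more than 2-fold above the mean of DMSO (2.32% of all genes were). This was KDM7A, a histone demethylase, which was low at 0.276 and 0.997 FPKM under DMSO. At 6 h, 8 were past 2-fold (36.4%, against 5.66% of all genes). The 4 at 12 h (18.2%, against 6.48%) were SLC3A2, KDM7A, VEGFA and CTH, the last 3 names being given after their values were seen. At 6 h, 0 were more than 2-fold lower (3.10% of all genes were). Against each DMSO library, 1 of the 22 was past 2-fold at 6 h, near the background of 3.21%. The median was 0.04 at 2 h, 0.55 at 6 h and 0.42 after 12 h. SLC3A2, the heavy chain of cystine and leucine transporters, was that gene and the highest of the list at 6 h. It was at 205 and 112 FPKM under DMSO, 287 and 222 at 2 h, 557 at 6 h and 672 after 12 h, and all SpiD7 libraries were above both DMSO libraries. ALDH18A1, an enzyme of proline synthesis and the lowest at 6 h, was at 26.9 and 23.7 under DMSO and 24.1 at 6 h. This list differed between the DMSO libraries in the direction opposite to the 10 genes. Of its 22 genes, 16 were lower in the recovered DMSO library than in the first (median log2 difference -0.42), whereas 8 of the 10 were higher there (median 1.01). Of all 13287 genes, 7189 were lower there and 5985 higher (median -0.06).

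Of the genes linked to CHOP in cell death and oxidation, 6 had a mean FPKM of 1 or more, and BCL2 did not. BBC3, BCL2L11 and GADD45A, 3 of the 6, exceeded the mean of DMSO more than 2-fold at 6 h and after 12 h. Of all genes, 5.66% and 6.48% did. The list had medians of 0.54, 1.29 and 0.96 over time. Past 2-fold against each DMSO library were BCL2L11 and GADD45A at both times (33.3%, against 3.21% and 3.88%). BBC3 and GADD45A are named here after their values were seen. BCL2L11 (BIM, a pro-apoptotic BH3 protein), the highest at 6 h, was at 7.20 and 7.56 FPKM under DMSO, 11.6 and 9.68 at 2 h, 24.2 at 6 h and 18.8 after 12 h. GADD45A, a growth arrest gene, was at 21.1 and 41.2 under DMSO, 46.2 and 40.7 at 2 h, 93.6 at 6 h and 182 after 12 h. ERO1L (ERO1A, the oxidase of the endoplasmic reticulum), the lowest, was at 32.5 and 57.4 under DMSO and 32.4 at 6 h. All 6 were higher in the recovered DMSO library than in the first, as 45.0% of all genes were.

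Other factors of the ATF and CREB families with a mean FPKM of 1 or more numbered 16. Among these, 1 (XBP1) was more than 2-fold higher at 6 h, and again at 12 h, than the mean of DMSO. This share, 6.25%, was near the 5.66% and 6.48% of all genes, and 0 were past 2-fold against each DMSO library. The medians of the 16 were 0.02, -0.11 and -0.20. CREB3L3 fell below that mean FPKM and was left out, at 0.0611 and 0.523 under DMSO and 1.32 at 12 h. XBP1, the factor of the IRE1 branch and the highest at 6 h, was at 20.3 and 49.8 FPKM under DMSO, 40.7 and 64.0 at 2 h, 93.8 at 6 h and 82.8 after 12 h. BATF2, the lowest, was at 5.18 and 12.8 under DMSO and 4.34 at 6 h. In limma at 2 h, 0 genes of these 4 lists (13, 22, 6 and 16 genes) passed the adjusted threshold, as 3 of all 13287 genes did. At an unadjusted limma p under 0.05, 378 of all 13287 genes passed, and 1 gene of the 4 lists. That gene, PMAIP1 (NOXA, a BH3 protein) of the list linked to CHOP, was at 17.0 and 25.1 FPKM under DMSO and 42.0 and 36.1 at 2 h.

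**Figure D3:**
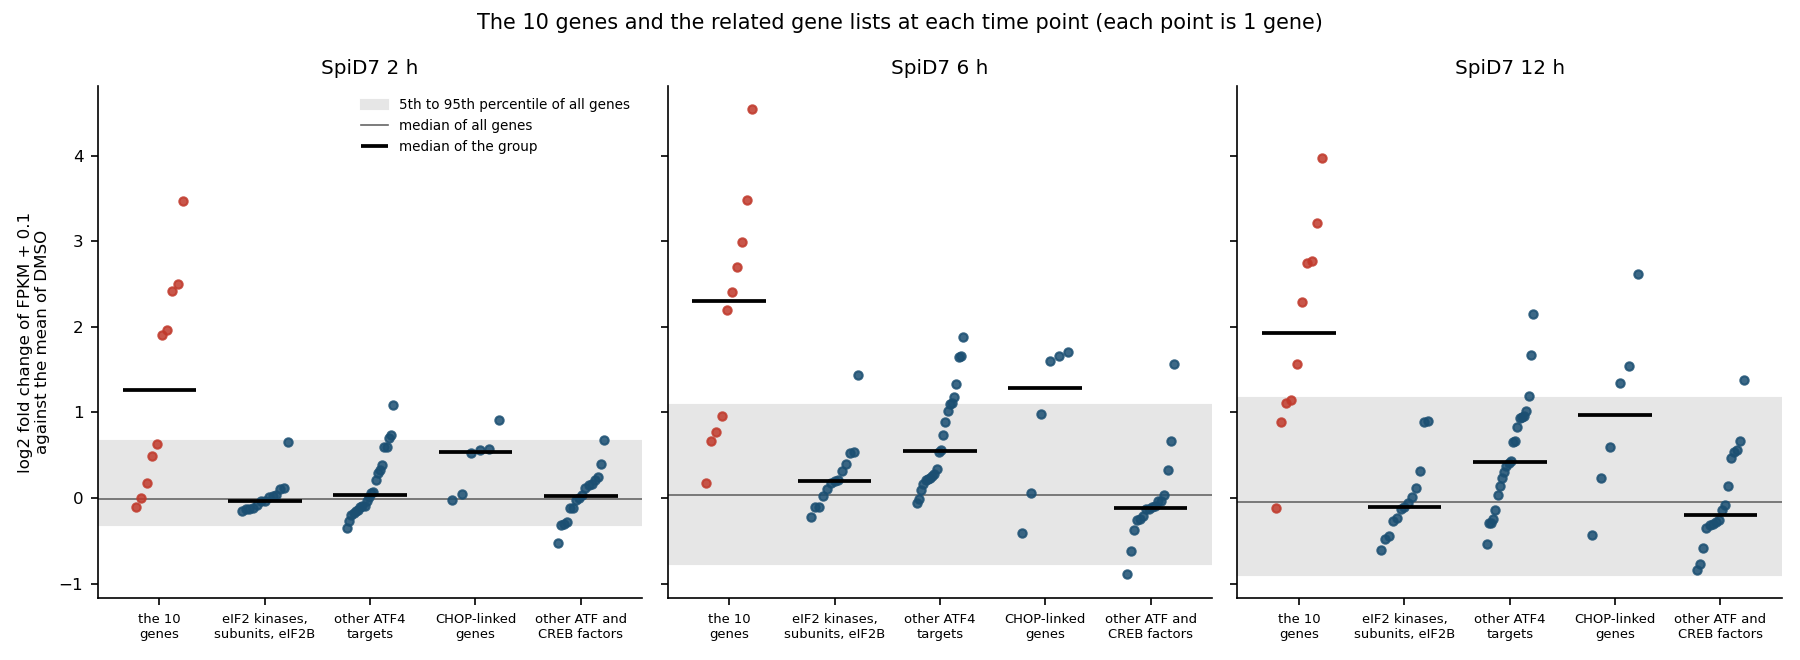
Log2 fold change of FPKM + 0.1 against the mean of DMSO at 2, 6 and 12 h for the 10 genes (red) and 4 lists of related genes (blue), with 1 point per gene, a black bar at the median of each group and grey for the range from the 5th to the 95th percentile of all 13287 genes (-0.77 to 1.09 at 6 h). The median of the 10 lies at 2.31 at 6 h and those of the lists between -0.11 and 1.29.

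Of 7 paralogs of the members with a mean FPKM of 1 or more, 0 were more than 2-fold above each DMSO library at 6 h or at 12 h, where 3.21% and 3.88% of all genes were. With 7 genes, 0 is near these shares. Against the mean of DMSO, 1 (TRIB1) was more than 2-fold higher at 6 h and at 12 h (14.3%, against 5.66% and 6.48% of all genes). At 6 h, 2 (TRIB2 and SESN3) were more than 2-fold lower, as were 3.10% of all genes. CHAC2, which like CHAC1 degrades glutathione, was at 22.7 and 13.3 FPKM under DMSO, 24.5 and 12.6 at 2 h, 20.8 at 6 h and 12.8 after 12 h, with replicate 2 lower in both groups. CHAC1 was below it in both DMSO libraries and above it at 6 h (31.2 against 20.8). SESN1 was at 2.63 and 2.29 under DMSO, 2.89 and 3.07 at 2 h, 3.97 at 6 h and 3.72 after 12 h, a log2 fold change at 6 h of 0.67 where SESN2 had 3.48. SESN3 was at 4.07 and 12.0 under DMSO, 3.26 and 10.3 at 2 h, 3.29 at 6 h and 4.09 after 12 h.

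PPP1R15B, the constitutive counterpart of PPP1R15A, was at 16.4 and 31.7 under DMSO, 21.6 and 26.9 at 2 h, 23.7 at 6 h and 20.4 after 12 h, all SpiD7 values lying between its DMSO libraries. TRIB1 was at 18.1 and 203 under DMSO, 95.9 and 143 at 2 h, 238 at 6 h and 253 after 12 h, so that its fold change at 6 h of 1.97 rested on the first DMSO library. TRIB2 was at 14.8 and 41.7 under DMSO, 12.5 and 30.1 at 2 h, 9.21 at 6 h and 12.5 after 12 h, with replicate 2 the higher in both groups. LRP8, a receptor related to VLDLR, was at 12.1 and 9.92 under DMSO, 10.9 and 8.35 at 2 h, 8.93 at 6 h and 7.86 after 12 h. DDIT4L, the paralog of DDIT4, was listed at 0 in all libraries but the recovered DMSO library (0.0324 FPKM).

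**Figure D4:**
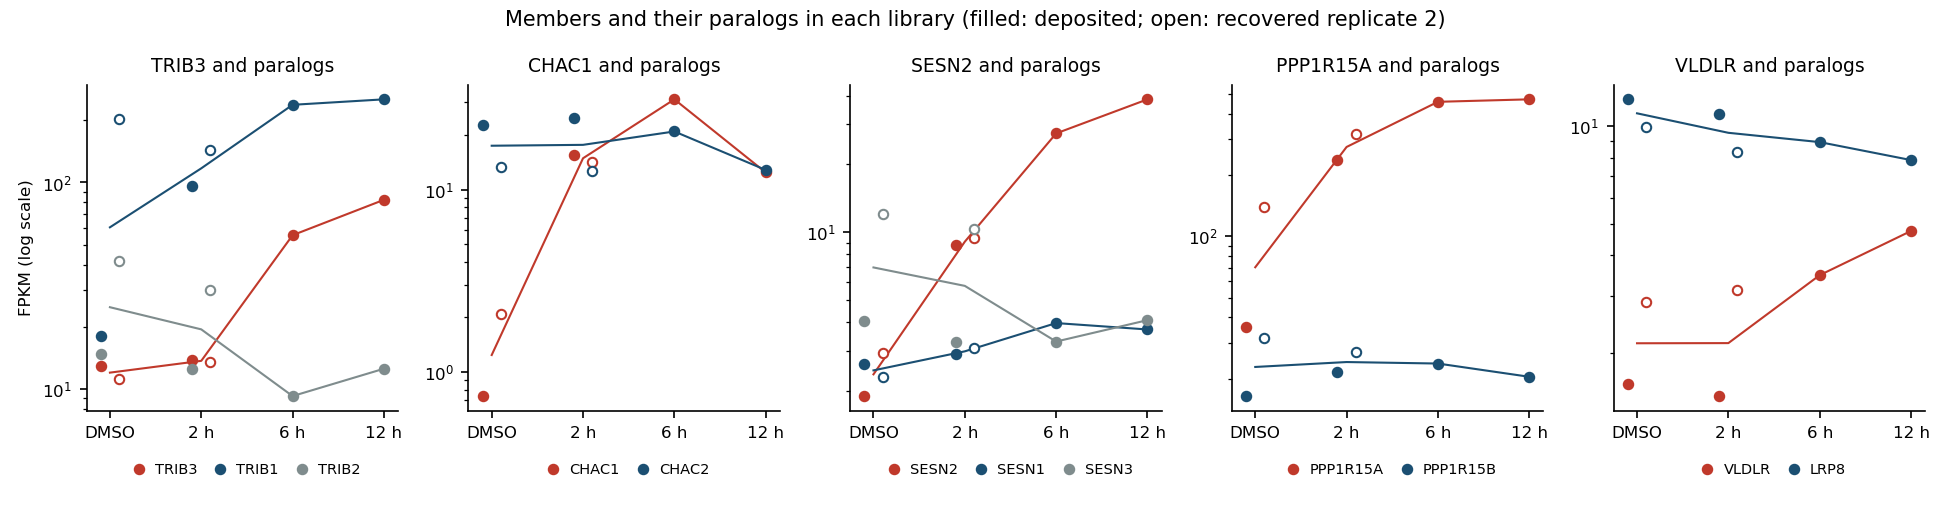
FPKM (log scale) of TRIB3, CHAC1, SESN2, PPP1R15A and VLDLR (red) and of their paralogs (blue and grey) under DMSO and after 2, 6 and 12 h of SpiD7, with filled points for deposited and open points for recovered libraries and lines through the geometric mean of each group. SESN2 goes from 1.89 and 2.94 under DMSO to 38.6 at 12 h while SESN1 ends at 3.72 and SESN3 at 4.09.

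The genes whose course was most like that of DDIT3 were sought by the root mean square difference of log2(FPKM + 0.1), after each gene was centred on its mean over the 6 libraries, among all 13287 genes. The nearest was DLX2, a homeobox factor, at 0.225, with 0.771 and 2.55 FPKM under DMSO, 6.89 and 9.81 at 2 h, 15.7 at 6 h and 9.92 after 12 h. SERTAD1, a regulator of cell cycle transcription, followed at 0.267, with 13.9 and 44.5 under DMSO, 102 and 125 at 2 h, 139.9 at 6 h and 88.8 after 12 h. It thus matched DDIT3 in level as well as in course under DMSO. Next were CDKN1A (p21) at 0.294, MXD1 at 0.307 and IL10RA at 0.353. Each of these 5 had more RNA in the recovered DMSO library than in DMSO replicate 1, as DDIT3 had, and lower at 12 h than at 6 h. Of the 10 genes, PPP1R15A was the nearest to DDIT3, in place 6 at 0.356, before CHAC1 in place 56 (0.656) and SESN2 in place 198 (0.853). ATF4 was in place 388 (0.963), DDIT4 in place 300 (0.922), VLDLR in place 844 (1.10), TRIB3 in place 2311 (1.25), ATF3 in place 7173 (1.39) and ATF5 in place 10048 (1.47).

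**Figure D5:**
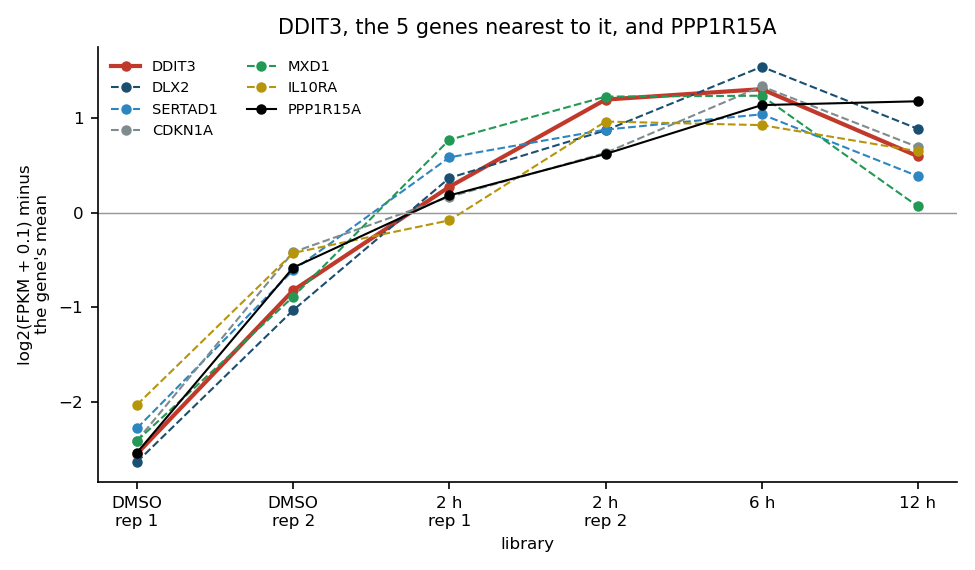
Log2(FPKM + 0.1) minus the mean of the gene over the 6 libraries, for DDIT3 (thick red), the 5 genes nearest to it (dashed) and PPP1R15A (black), with lines only joining the points of 1 gene. The 5 genes lie within a root mean square difference of 0.225 to 0.353 of DDIT3, and PPP1R15A at 0.356 lies below it in the recovered 2 h library and above it at 12 h.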

How the data were processed

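By the submitters' processing notes and the methods, the authors used Trim Galore for trimming of unpaired reads, TopHat 2.0.8 for alignment, and Cufflinks and Cuffdiff 2.1.1 for expression. The methods also name a mouse build, whereas the deposited loci are human (hg38). The authors deposited FPKM for both sides of 4 Cuffdiff comparisons, each scaled separately, and fold changes, p-values and q-values that were not used here. Columns with neither a sample nor a group numbered 0. The 6 h and 12 h libraries were put on the scale of the first comparison through DMSO replicate 1 (factors 0.972 at 6 h and 0.994 at 12 h). The recovered libraries took their scale from the first library of their own group. The columns named for replicate 2 never fell below 0.526 (DMSO) and 0.509 (2 h) of the first library over rows above 1 FPKM, and were read as means. Replicate 2 is what remained, with equal weights assumed. The deposited values hold no counts, so depth is unknown. Low values place it, relative to DMSO replicate 1, at 0.771 to 1.11.

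Rows of a symbol were summed (33085 rows). A gene was kept if its mean FPKM was 1 or more. DMSO and 2 h were compared by limma 3.58.1 (R 4.3.3) on log2(FPKM + 0.1). The code was run on simulated data with noise set well below the replicate spread of these data. That run does not show how the test performs here. Called means an adjusted p under 0.05 and over 2-fold. Single libraries at 6 h and 12 h had no test. Figures and tables used Python 3.11.15. The 10 genes and all lists were chosen with earlier results of these data known. Beside the 10, the text names the highest and lowest gene of each list at 6 h, their paralogs (1 gene is not reported here), the markers and the 5 genes nearest to DDIT3, and others where a count is 5 or fewer. Positions of genes are from GENCODE 29 (GRCh38), and sequences from RefSeq (GRCh38.p14). Alternatives were other pseudocounts, filters and scalings, the row with the highest FPKM per symbol, a trend or replicate block in limma, the mean columns, and leaving out a library.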

Additional observations from a re-analysis of the deposited data

How the results depend on the processing

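The recovered libraries rest on reading a column as a mean of equal weights, 6 h and 12 h have 1 library each, and the depth behind low values such as CHAC1 under DMSO is unknown. Other pseudocounts, filters, scalings and the choice of row left each count of the 10 genes within 1.5 times its value, and 0 of the 10 were called at 2 h under every limma setting. The numbers of the replicates mark no stated pairing. With the replicate block, limma called 0 of the 10 (lowest adjusted p = 0.329) and 0 of all genes. At an unadjusted limma p under 0.05, 5 of the 10 passed with the block and 3 without it. The share of all genes at that p was not counted with the block, so the 5 and the 3 cannot be compared. Over genes the deviations of same-numbered libraries had a correlation of 0.369.

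The DMSO libraries mattered most. Leaving out 1 DMSO or 2 h library at a time gave 3 to 6 genes more than 2-fold higher at 2 h, and 6 to 8 with the 2 h libraries above the DMSO libraries. Leaving out 1 DMSO library gave 5 to 9 genes at 6 h and 5 to 9 at 12 h, both against the mean and against each remaining DMSO library. Counts above all or each of the DMSO libraries can only stay or rise when a library is left out. Their lower ends, 6 at 2 h and 5 at 6 h and 12 h, were thus fixed beforehand and show no stability. The shares of all genes under these settings were not counted. The first libraries alone gave 5 at 2 h and the recovered ones 4, a choice made after the data were seen. With 1 DMSO library left out, the log2 fold change of ATF3 ranged from -0.71 to 5.71 at 2 h, from -0.80 to 5.62 at 6 h and from -1.64 to 4.78 by 12 h, being negative without DMSO replicate 1. The other changes of sign, in ATF5, DDIT4 and VLDLR, were of values under 2-fold.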
